A study of Rattus norvegicus with 9 samples.

Results

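The genes of cell division described here were a list of 46 genes of DNA replication and mitosis, selected by gene symbol. No measured value set the selection, but the list was made with earlier results of these data known. Of these, 41 had a feature annotated with that symbol alone, out of 14506 symbols and 29215 features on the array. Mki67, Cenpe, Cenpf, Mcm3 and Mcm4 had no such feature and were not analysed here. Ccnb2, Rrm1 and Rrm2 had 2 features each, and the one with the higher mean over the 9 arrays was used.

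The values came from right ventricles of male SD (Sprague-Dawley) rats, measured on the Affymetrix Rat Gene 1 ST array. In pulmonary artery banding (PAB) the outflow of the right ventricle is narrowed, so that the ventricle works against a raised pressure. The F+ group (3 arrays) consisted of PAB hearts with a fibrotic area above 6.5% at 4 weeks after the operation, the F- group (3 arrays) of PAB hearts below that limit, and the Sham group (3 arrays) of sham-operated rats. No other treatment was named for any group, and the age of these rats was not found in the labels or methods. Whether each array stands for its own animal is not stated, so p-values measure only the spread between arrays, which may be technical. Tissue of the whole ventricle was used, in which fewer cells of a type and less RNA per cell cannot be told apart. All 11 cardiomyocyte markers had a feature, and their summed value was 1681 to 1699 on F+ arrays, 1703 to 1720 on F- arrays and 1679 to 1708 on Sham arrays.

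A cell that enters division first raises D-type cyclins, which release E2F factors from the retinoblastoma proteins. E2F factors switch on the genes of S phase, whose products load the MCM helicase at origins, supply deoxynucleotides and copy the DNA. Later, FOXM1 and the MuvB complex with B-MYB switch on the genes of mitosis, many of which carry a CCAAT box, bound by NF-Y, and a CHR element (TTTGAA), bound by MuvB. Most cardiomyocytes of the adult rat have left the cell cycle, whereas fibroblasts, endothelial cells and macrophages of an overloaded heart can divide.

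Promoter windows are shown to describe how often the 2 motifs above occur at these genes. A link between the motifs and the values was not tested. Windows of 300 bases, from 250 before to 50 after the start of the gene, were taken from RefSeq (assembly GRCr8), and 34 of the 46 members had at least 1 window (35 windows in all). Aurkb, Ccna2, Ccnd1, Ccne2, Cdc6, E2f1, Foxm1, Mcm4, Pbk, Rrm2, Tpx2 and Ube2c had none. CCAAT, searched on both strands, was in 74.3% of the 35 member windows and in 37.5% of all 33469 windows. TTTGAA, also searched on both strands, was in 42.9% of the member windows and in 18.3% of all windows, and the pair of motifs was in 37.1% (13 windows) and 7.41%. GCGGGAA, a core of E2F sites, was in 17.1% and 4.21%, and TATAAA, the TATA box, was in 2.86% and 14.2%. None of these motifs contains another. A CCAAT that starts 31 to 36 bases before a TTTGAA was in 5 member windows (14.3%; Cdc20, Cdk1, Prc1, Top2a and Ttk) and in 0.317% of all windows. This spacing was chosen after the printed windows of Cdk1, Prc1, Top2a and Ttk were seen. These genes are thus in the count by the choice of the range, and no conclusion is drawn from the 2 shares. A match describes the letters only and is not evidence of binding.

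The sequences below each have 180 bases, from 150 before to 30 after the start. The first 4 are of the genes with both motifs and the largest log2 differences between F- array 1 and Sham array 1, so they were picked by value. The last, Tyms, had neither motif and a different pattern of values (log2 difference -0.023). It does not stand for all members without the motifs. Of the others with neither motif, Bub1, Ccne1 and Kif2c had differences of 0.44, 0.275 and 0.13. Aurka and Melk, also with neither, had -0.024 and -0.14. Capitals mark CCAAT and TTTGAA or their reverse complements, ATTGG and TTCAAA, and all sequences run 5′ to 3′ along the gene.
Ttk, chr8:93634489-93634668, plus strand: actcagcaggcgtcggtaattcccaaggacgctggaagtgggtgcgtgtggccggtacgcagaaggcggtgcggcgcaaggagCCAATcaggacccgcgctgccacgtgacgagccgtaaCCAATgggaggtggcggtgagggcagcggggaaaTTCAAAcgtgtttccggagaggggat
Top2a, chr10:84473064-84473243, minus strand: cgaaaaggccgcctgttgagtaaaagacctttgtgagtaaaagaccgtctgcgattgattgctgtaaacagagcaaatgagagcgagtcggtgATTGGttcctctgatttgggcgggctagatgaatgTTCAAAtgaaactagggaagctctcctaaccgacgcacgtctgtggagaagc
Cdk1, chr20:19265143-19265322, plus strand: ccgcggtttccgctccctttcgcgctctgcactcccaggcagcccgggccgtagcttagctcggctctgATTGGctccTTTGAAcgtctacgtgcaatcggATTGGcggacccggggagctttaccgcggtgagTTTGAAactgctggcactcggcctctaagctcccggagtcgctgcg
Prc1, chr1:143659331-143659510, plus strand: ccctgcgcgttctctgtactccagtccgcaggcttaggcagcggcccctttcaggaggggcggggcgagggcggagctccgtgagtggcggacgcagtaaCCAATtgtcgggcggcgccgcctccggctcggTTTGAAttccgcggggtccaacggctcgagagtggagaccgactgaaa
Tyms, chr9:120776054-120776233, minus strand: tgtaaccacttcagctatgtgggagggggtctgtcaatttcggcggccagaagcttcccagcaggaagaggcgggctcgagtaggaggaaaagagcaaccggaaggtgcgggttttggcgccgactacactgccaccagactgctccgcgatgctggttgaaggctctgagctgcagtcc
The spacing between the starts of the 2 motifs was 34 bases in Ttk, 35 in Top2a, 33 in Cdk1 and 32 in Prc1. The CCAAT of the pair lay 30 bases before the start in Ttk, 57 in Top2a, 49 in Cdk1 and 50 in Prc1, and the TTTGAA lay 22, 16 and 18 bases before the start in Top2a, Cdk1 and Prc1 and 4 bases after it in Ttk.

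No cell division gene passed the threshold after adjustment over all features. In limma's test over the 29215 features, 0 of 41 genes passed an adjusted p of 0.05 in F+ against F-, in F- against Sham, in F+ against Sham or in the mean of both PAB groups against Sham. The lowest adjusted p of a member was 0.540 for Tyms in F+ against F-, 0.743 in F- against Sham, 0.60 for Tyms in F+ against Sham and 0.726 in PAB against Sham. Of all features, 1 (0.00342%) passed in F+ against F- and 0 passed in the other comparisons. At an unadjusted p under 0.05, 3 members (7.32%) were counted in F+ against F-, against 7.41% of all features. The same count was 3 members in F- against Sham (6.03% of all features) and 3 in F+ against Sham (7.4%). In PAB against Sham it was 6 members (14.6%; 4 higher and 2 lower), against 6.29% of all features. This count rested on single arrays. With 1 array left out it ranged from 1 member, without Sham array 1 or without Sham array 3, to 8 members, without F- array 3 or without Sham array 2.

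The signs of the differences lay on 1 side more often than among all features. In F- against Sham, 33 of 41 members (80.5%) had a log2 fold change above 0, against 48% of all features, and the median was 0.087. In F+ against Sham the count was 34 (82.9%, against 47.4% of all features), with a median of 0.056. In F+ against F- it was 13 (31.7%, against 48.2% of all features), with a median of -0.018. With both PAB groups set against Sham it was 34 (82.9%, against 47.3% of all features), with a median of 0.0765. The medians of all features in these comparisons lay between -0.0035 and -0.0023. The F+ and F- groups were set against the same 3 Sham arrays, so the first and the second of these counts share their control values. Groups that did not overlap were few. In F+ against F-, 0 members were higher on every F+ array (4.46% of all features) and 3 were lower (Tyms, Cdk2 and Ttk; 5.28% of all features). In F+ against Sham, 2 were higher (Ccnd1 and Nusap1; 5.69% of all features) and 2 lower (Tyms and Cdk2; 6.56%), and in F- against Sham none was higher or lower (5.15% and 4.64%). No member lay with all 6 PAB arrays above or below all Sham arrays (1.09% and 1.53% of all features).

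**Figure D1:**
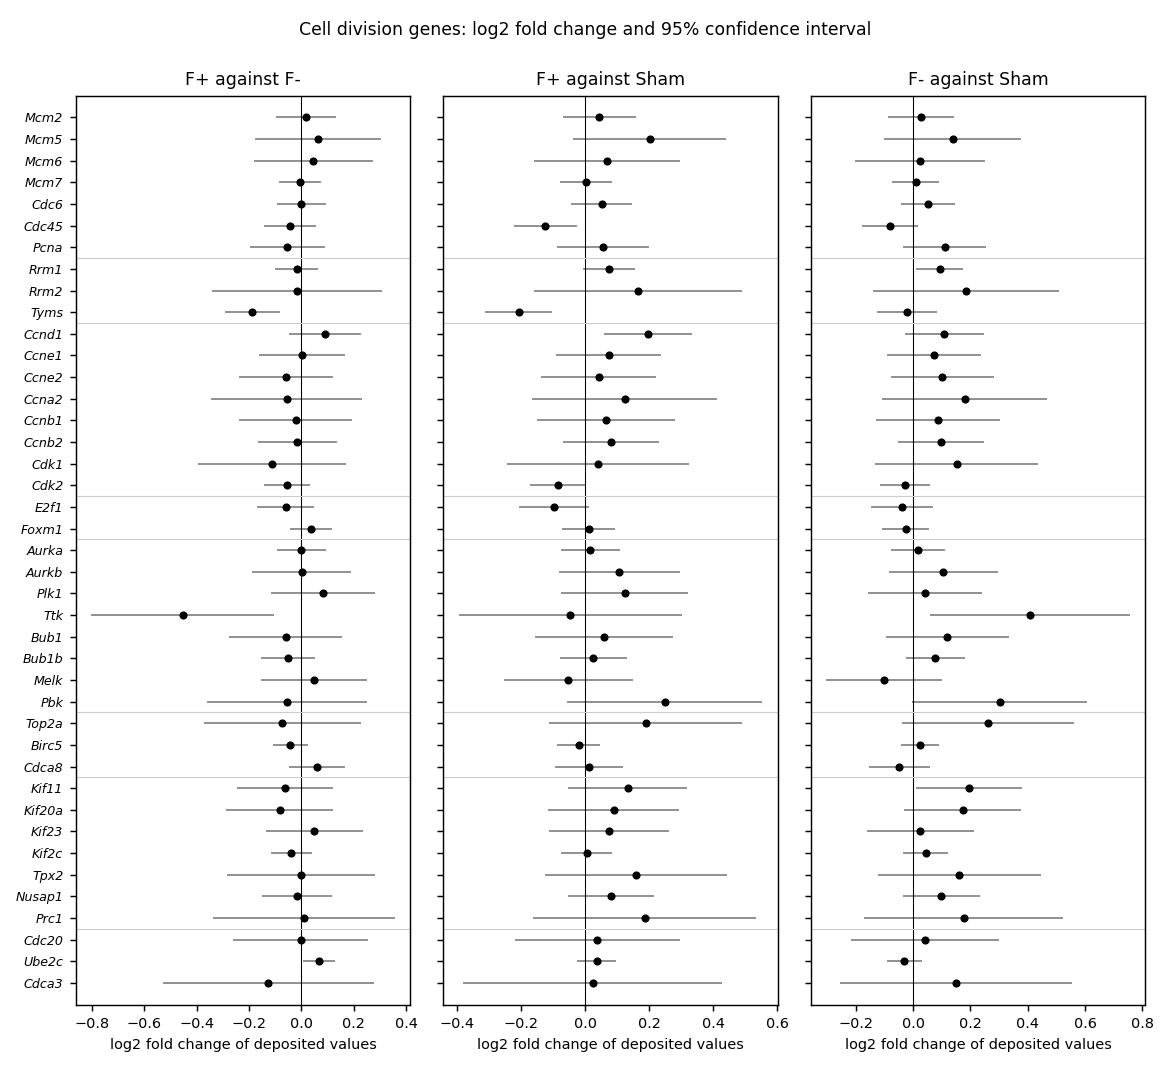
Log2 fold change of the deposited values of 41 cell division genes (rows, in groups by role) in 3 comparisons, with points for the estimate and lines for the 95% confidence interval from limma. Most points of the comparisons with Sham lie right of 0 and most intervals hold 0, and Tyms lies left of 0 in both comparisons of the F+ group.

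These medians moved with 2 arrays. F- array 1 held the single highest of the 9 values for 23 of 41 members (56.1%), against 13.4% of all features, and Sham array 1 held the single lowest value for 24 (58.5%), against 11.9% of all features. Over all features these arrays leaned the other way, since Sham array 1 held the single highest value of 15.5% and F- array 1 the single lowest of 15.4%, against 2 members and 1 member. For 17 members (41.5%, against 2.68% of all features) both were true. These were Rrm1, Rrm2, Ccne1, Ccna2, Cdk1, Aurkb, Bub1, Bub1b, Pbk, Top2a, Kif11, Kif20a, Kif2c, Tpx2, Nusap1, Cdc20 and Cdca3. The 2 arrays were singled out after these values were seen, so the counts are a description, with no test. The median deviation of the 41 genes from their 9-array means was -0.017, 0.0017 and 0.058 on the log2 scale on F+ arrays 1 to 3, 0.13, 0.010 and -0.039 on F- arrays 1 to 3, and -0.13, 0.0081 and -0.0041 on Sham arrays 1 to 3. The same median over all features lay between -0.0007 and 0.0035 on every array. F- array 2 was thus close to Sham arrays 2 and 3 in this measure and F- array 3 was below both, and F+ array 3 was the second highest array.

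**Figure D2:**
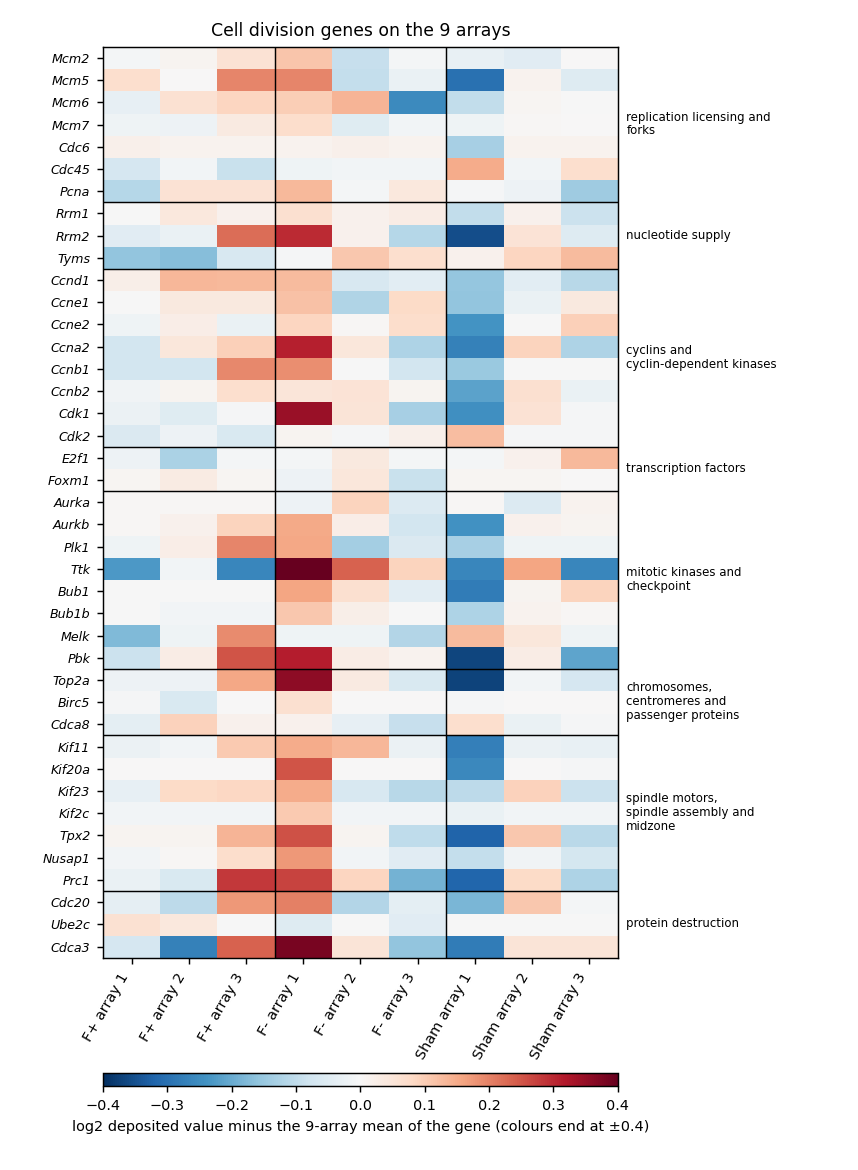
Deviation of the log2 deposited value from the 9-array mean of the gene for 41 cell division genes (rows, in groups by role) on the 9 arrays (columns), with red above and blue below the mean and colours that end at ±0.4. The column of F- array 1 is mostly red, that of Sham array 1 mostly blue, and F+ array 3 is red for part of the mitotic genes.

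Between these 2 arrays, 32 of 41 members (78%) had the higher value on F- array 1, against 44.2% of all features, and the median ratio was 1.21. With both arrays left out, an alternative chosen after seeing the data, 13 of 41 members had a log2 fold change above 0 in F- against Sham (50% of all features), and the median was -0.026. Without F- array 1 alone the count was 28 and the median 0.029, and without Sham array 1 alone the count was 31 and the median 0.025. In F+ against Sham, 26 of 41 members stayed above 0 without Sham array 1, with a median of 0.019. In F+ against F-, the median turned to 0.037 without F- array 1, with 24 of 41 members above 0. Among the 30 members with both a window and a feature, the 11 with CCAAT and TTTGAA had a median log2 difference of 0.29 between F- array 1 and Sham array 1 (-0.048 to 0.80), and 10 of 11 were above 0. The other 19 had a median of 0.16 (-0.17 to 0.66), with 14 of 19 above 0, so the ranges overlapped. The 2 arrays were singled out by the values of these genes, and a part of the motifs in the difference was not tested.

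Markers of other cell types also differed between the arrays. The 10 macrophage markers had summed values of 632, 690 and 658 on F+ arrays, 635, 511 and 520 on F- arrays and 566, 533 and 557 on Sham arrays. F- array 1 was therefore at the level of the F+ arrays, and F- arrays 2 and 3 were below all Sham arrays. All 10 markers had a log2 fold change above 0 in F+ against F- (median 0.24), against 48.2% of all features. Of them 6 had an unadjusted p under 0.05 (7.41% of all features) and 0 passed after adjustment over all features. The 9 fibroblast markers summed to 769 to 837 on F+ arrays, 816, 771 and 750 on F- arrays and 743, 787 and 786 on Sham arrays, and their median deviation was highest on F+ array 3 (0.096) and next on F- array 1 (0.067). Postn, a matrix protein of activated fibroblasts, was chosen after its values were seen. It had 65.5, 69.4 and 77.6 on F+ arrays, 86.7, 43.6 and 35.4 on F- arrays and 40.5, 42.9 and 50.2 on Sham arrays. The fibroblast markers were split on F- array 1, where 2 of the 9 had their single highest value and 3 their single lowest (Dcn, Pdgfra and Tcf21). The 4 atrial markers measured had a median deviation of 0.98 on Sham array 2, where 3 of them were highest, and between -0.36 and -0.019 on the other 8 arrays. The fourth, Nppa, was highest on F- array 1. It had 149.5, 134.3 and 140.2 on F+ arrays, 155.6, 37 and 43.6 on F- arrays and 57.7, 135.8 and 59.7 on Sham arrays. The 5 red cell markers were all highest on F+ array 1, with a median deviation of 0.53. On F- array 1 and Sham array 1 the macrophage markers had median deviations of 0.11 and -0.027, and the fibroblast markers 0.067 and -0.055. Both lists were thus higher on F- array 1, as the cell division genes were. The cardiomyocyte markers had -0.0017 and -0.0057, the atrial markers -0.30 and -0.12, and the red cell markers -0.21 and -0.092. The remaining lists were not higher on F- array 1 than on Sham array 1. Their median deviations on these 2 arrays were -0.023 and 0.037 for 6 endothelial markers and -0.026 and 0.036 for 7 smooth muscle and pericyte markers. They were 0.0026 and 0.018 for 8 lymphocyte markers, and 0.018 on both arrays for 7 mast cell markers. No marker was at 0, since the lowest value of any feature was 1. The part of these cell types in the values of the cell division genes was not tested.

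**Figure D3:**
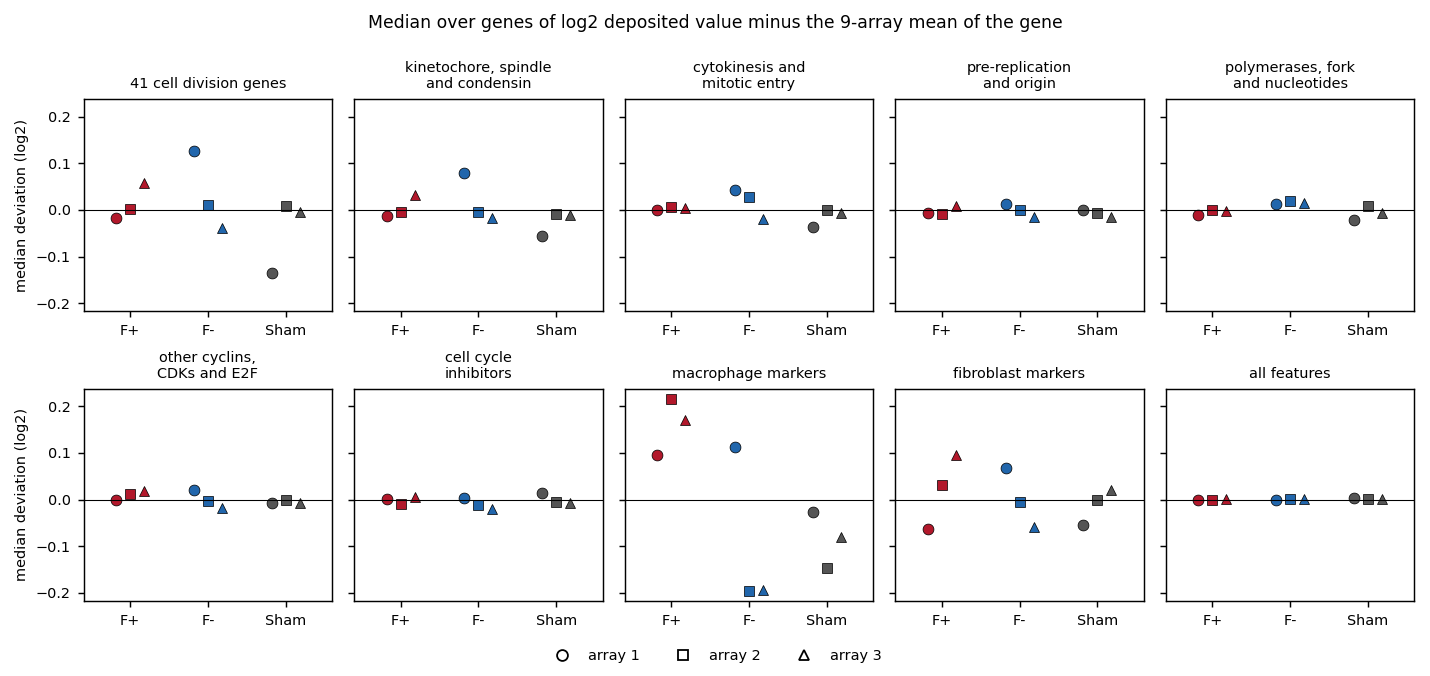
Median over the genes of a list of the log2 deposited value minus the 9-array mean of the gene, for 10 lists, with 1 point per array in the F+, F- and Sham groups. F- array 1 is the highest and Sham array 1 the lowest point in the panel of the 41 cell division genes, while all 3 F+ arrays and F- array 1 are above 0 in the panel of macrophage markers.

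Genes of replication licensing and forks (7 measured) had small fold changes. Mcm5, a subunit of the replicative helicase, had 34.7, 33.1 and 37.9 on F+ arrays, 37.9, 31 and 32.5 on F- arrays and 26.9, 33.4 and 31.9 on Sham arrays. Sham array 1 was the lowest, and the groups overlapped (F+ against Sham: log2 fold change 0.20, SE 0.10, adjusted p = 0.699). Cdc45, which joins MCM in the active helicase, had 29.4, 30.6 and 29 on F+ arrays, 30.5, 30.6 and 30.6 on F- arrays and 34.2, 30.6 and 32.3 on Sham arrays. It ran opposite to most members, with its highest value on Sham array 1 and a log2 fold change of -0.12 in F+ against Sham (SE 0.042, unadjusted p = 0.0191, adjusted p = 0.626). Pcna, the sliding clamp of the DNA polymerases, had 51.5, 57.9 and 58 on F+ arrays, 60.9, 55.4 and 57.3 on F- arrays and 55.5, 54.9 and 50.5 on Sham arrays. Its groups overlapped as well (F- against Sham: 0.11, SE 0.062, adjusted p = 0.743). The other helicase subunits Mcm2, Mcm6 and Mcm7 and the loading factor Cdc6 had log2 fold changes between 0 and 0.069 in F+ against F- and in F+ against Sham, except Mcm7 in F+ against F- (-0.0054). Cdc6 had only 3 distinct values on the 9 arrays, with 22.9 on Sham array 1 and 25.4 or 25.5 on the others.

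The 3 genes of nucleotide supply were split. Tyms, thymidylate synthase, which makes dTMP from dUMP, had 51, 50.6 and 54.4 on F+ arrays, 56.7, 61.3 and 59.6 on F- arrays and 57.6, 60.4 and 62.1 on Sham arrays. Every F+ array was below every F- and Sham array, and the mean was 52 ± 2.09 in F+, 59.2 ± 2.33 in F- and 60.03 ± 2.27 in Sham (SD, n = 3 each). The log2 fold change was -0.19 in F+ against F- (SE 0.045, unadjusted p = 0.00346, adjusted p = 0.540) and -0.21 in F+ against Sham (unadjusted p = 0.00192, adjusted p = 0.60). Both exact two-sided permutation tests gave p = 0.1, the smallest value that 3 arrays against 3 allow. In F- against Sham the value was -0.020. Rrm1, the large subunit of ribonucleotide reductase, had 67, 69 and 67.8 on F+ arrays, 70.1, 67.8 and 68.5 on F- arrays and 62.7, 67.8 and 63.2 on Sham arrays. Only Sham array 2 lay among the PAB arrays (F- against Sham: 0.092, SE 0.035, unadjusted p = 0.0313, adjusted p = 0.743). Rrm2, the small subunit, which is made in S phase, was highest on F- array 1 (39.6) and lowest on Sham array 1 (25.2), with 29.8 to 37.6 on the other 7 arrays.

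Among the 8 cyclins and cyclin-dependent kinases, Ccnd1 was the gene with the clearest separation of the F+ from the Sham group. Ccnd1, cyclin D1, which drives entry into the cycle, had 78.4, 84.6 and 84.5 on F+ arrays, 84.3, 73.9 and 74.9 on F- arrays and 69.4, 75 and 71.4 on Sham arrays. All F+ arrays were above all Sham arrays, and F- array 1 was at the level of the F+ arrays while F- arrays 2 and 3 were not. The mean was 82.5 ± 3.55 in F+, 77.7 ± 5.74 in F- and 71.9 ± 2.84 in Sham (SD, n = 3 each). The log2 fold change in F+ against Sham was 0.20 (SE 0.059, unadjusted p = 0.0108, adjusted p = 0.616), and by the exact permutation test (two-sided) p was 0.1, and 0.2 in F+ against F-. Cdk2, the partner of cyclins E and A, had 39.7, 40.7 and 39.6 on F+ arrays, 41.6, 41.2 and 41.9 on F- arrays and 45, 41.2 and 41.2 on Sham arrays. All F+ arrays were below all F- and Sham arrays, by a small amount (F+ against Sham: -0.085, SE 0.038, adjusted p = 0.675).

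The cyclins and the kinase of mitosis followed F- array 1 and Sham array 1. Cdk1, the kinase that starts mitosis, had 23, 22.6 and 23.3 on F+ arrays, 29.7, 24.2 and 21.3 on F- arrays and 19.7, 24.3 and 23.3 on Sham arrays. Ccna2, cyclin A2, which acts in S phase and G2, had 27.5, 29.9 and 30.9 on F+ arrays, 35.9, 29.9 and 26.6 on F- arrays and 24, 30.8 and 26.6 on Sham arrays. In both genes F- array 3 was as low as or lower than Sham arrays 2 and 3, so the groups overlapped. The log2 fold change in F- against Sham was 0.15 for Cdk1 (SE 0.12, adjusted p = 0.769) and 0.18 for Ccna2 (SE 0.12, adjusted p = 0.754), and both turned below 0 without the 2 arrays (-0.068 and -0.021). Ccnb1, cyclin B1, the partner of Cdk1, had 19.9, 19.9 and 23.9 on F+ arrays, 23.8, 20.9 and 19.9 on F- arrays and 18.9, 20.9 and 20.9 on Sham arrays. F+ array 3 and F- array 1 stood out together (F- against Sham: 0.087, SE 0.093, adjusted p = 0.812). Ccnb2, a second B-type cyclin, Ccne1 and Ccne2, the E-type cyclins of the G1 to S transition, were each lowest on Sham array 1 (27.5, 20 and 23.2).

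The 2 transcription factors did not follow these arrays. E2f1, which activates S phase genes, had 22.7, 21.1 and 22.9 on F+ arrays, 22.9, 23.7 and 22.9 on F- arrays and 22.9, 23.3 and 25.2 on Sham arrays. Its log2 fold change in F+ against Sham was -0.098 (SE 0.047, adjusted p = 0.690). Foxm1, the factor of the mitotic programme, had 36.6, 37.2 and 36.6 on F+ arrays, 35.9, 37.6 and 34.2 on F- arrays and 36.6, 36.6 and 36.4 on Sham arrays. Neither gene had its highest value on F- array 1 or its lowest on Sham array 1, and Foxm1 differed by 0.037 in F+ against F- (SE 0.035, adjusted p = 0.816).

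**Figure D4:**
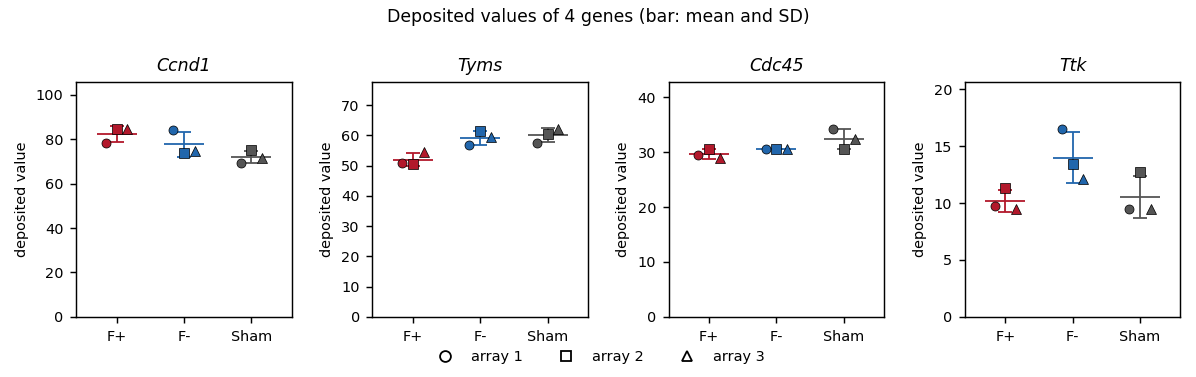
Deposited values of Ccnd1, Tyms, Cdc45 and Ttk on the 9 arrays (points, 3 per group), with the mean and SD of the F+, F- and Sham groups as bars, on axes that start at 0. The F+ points of Ccnd1 are above the Sham points, those of Tyms are below all F- and Sham points, and the F- points of Ttk are above the F+ points.

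Of the 8 mitotic kinases and checkpoint genes, Ttk had the largest log2 fold changes in F+ against F- and in F- against Sham, and Pbk in F+ against Sham (0.25) and in PAB against Sham (0.28). Ttk, the MPS1 kinase of the spindle checkpoint, had 9.7, 11.3 and 9.5 on F+ arrays, 16.5, 13.4 and 12.1 on F- arrays and 9.5, 12.7 and 9.5 on Sham arrays. All F- arrays were above all F+ arrays, and Sham array 2 lay among the F- arrays. The log2 fold change was -0.45 in F+ against F- (SE 0.15, unadjusted p = 0.0173, adjusted p = 0.635) and 0.41 in F- against Sham (unadjusted p = 0.0275, adjusted p = 0.743), at values within the dimmest 33.3% of features. Without F- array 1 the first became -0.33. Pbk, a kinase active in mitosis, had 18.1, 19.6 and 22.9 on F+ arrays, 23.9, 19.6 and 19.4 on F- arrays and 14.9, 19.6 and 16.6 on Sham arrays. Sham arrays 1 and 3 were the lowest, and 3 arrays, 1 of each group, had the same value of 19.6 (F- against Sham: 0.30, SE 0.13, adjusted p = 0.743).

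The other kinases and checkpoint genes of this group were mixed. Aurkb, the kinase of the chromosomal passenger complex, and the checkpoint genes Bub1 and Bub1b were highest on F- array 1 (36.9, 31.1 and 17.5) and lowest on Sham array 1 (28.1, 23 and 14.9). Plk1, a kinase of mitotic entry, was highest on F+ array 3 (35.9) and next on F- array 1 (34.9). Aurka, the centrosome kinase, had 29.8 on all 3 F+ arrays, 28.6 to 31.6 on F- arrays and 28.6 to 30 on Sham arrays. Melk, an embryonic leucine zipper kinase, had 14.6 to 18.8 on F+ arrays, 15.2 to 16.3 on F- arrays and 16.3 to 18 on Sham arrays, and neither gene had its single highest value on F- array 1.

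Top2a, the topoisomerase that untangles sister chromatids, had the widest gap between these 2 arrays of the 41 genes after Ttk. It had 36.3, 36.3 and 41 on F+ arrays, 47.2, 37.7 and 35.3 on F- arrays and 28.5, 36.5 and 35.1 on Sham arrays, a ratio of 1.66 between F- array 1 and Sham array 1. The other 7 arrays lay between 35.1 and 41 (F- against Sham: 0.26, SE 0.13, adjusted p = 0.743). Birc5, survivin, of the passenger complex, had 26.6, 25.6 and 26.7 on F+ arrays, 27.9, 26.7 and 26.7 on F- arrays and 26.6, 26.7 and 26.7 on Sham arrays. It was nearly the same on 7 arrays (F+ against F-: -0.043, SE 0.029, adjusted p = 0.745). Cdca8, borealin, of the same complex, had 19.7 to 21.6 on F+ arrays, 19 to 20.5 on F- arrays and 19.9 to 21.2 on Sham arrays.

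The 7 genes of spindle motors, spindle assembly and the midzone all had log2 fold changes above 0 in F- against Sham (0.025 to 0.19) and in F+ against Sham (0.0047 to 0.19). The same arrays stood out, since 6 of the 7 were highest on F- array 1 and 6 were lowest on Sham array 1. Kif11, the motor that separates the spindle poles, had 23.8, 24 and 26 on F+ arrays, 26.8, 26.5 and 23.8 on F- arrays and 20, 23.8 and 23.7 on Sham arrays. Here F- array 2 was also high, and only 1 Sham array was clearly below the rest (F- against Sham: 0.19, SE 0.079, unadjusted p = 0.0411, adjusted p = 0.743). Kif20a, a motor of cytokinesis, had 24.2, 24.2 and 24.2 on F+ arrays, 28.8, 24.2 and 24.2 on F- arrays and 20.2, 24.2 and 24.1 on Sham arrays. It differed from about 24.2 only on the 2 arrays, and its log2 fold change in F- against Sham of 0.17 (SE 0.088, adjusted p = 0.743) came almost wholly from them.

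Tpx2, which activates Aurora A on the spindle, and Nusap1, a microtubule bundling protein, were highest on F- array 1 (42.8 and 41.8) and lowest on Sham array 1 (28.7 and 34.7). Kif2c, a microtubule depolymerase, had 20.4 on 7 of the 9 arrays, with 22.1 on F- array 1 and 20.2 on Sham array 1. Kif23, a motor of the central spindle, was highest on F- array 1 (28.5) but lowest on F- array 3 (23.8). Prc1, which crosslinks midzone microtubules, had 38 on F+ array 3, 37.7 on F- array 1 and 25.1 on Sham array 1, with 27.4 to 33.2 on the others.

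**Figure D5:**
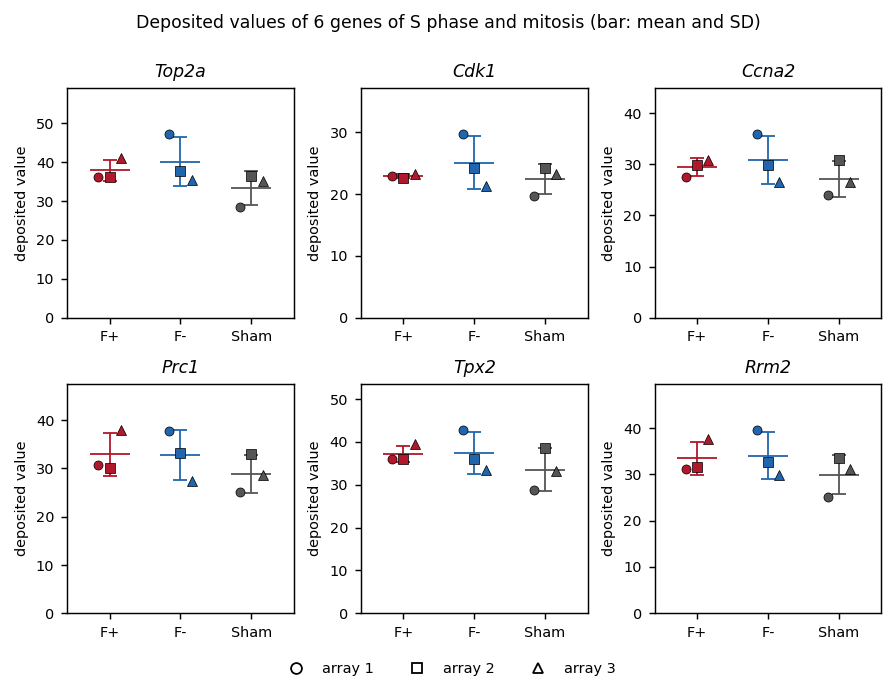
Deposited values of Top2a, Cdk1, Ccna2, Prc1, Tpx2 and Rrm2 on the 9 arrays (points, 3 per group), with the mean and SD of the F+, F- and Sham groups as bars, on axes that start at 0. In each gene the first Sham array is the lowest point, and the first F- array is the highest in all but Prc1, where F+ array 3 is.

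Of the 3 genes of protein destruction, Cdca3, which helps to degrade the Cdk1 inhibitor WEE1, had 18.4, 16 and 22.7 on F+ arrays, 25.1, 20 and 17.3 on F- arrays and 15.9, 20 and 20 on Sham arrays. The 3 groups overlapped (F- against Sham: 0.15, SE 0.17, adjusted p = 0.830). Ube2c, the ubiquitin-conjugating enzyme of the anaphase-promoting complex, had 47.1, 46.5 and 45.1 on F+ arrays, 43.6, 45.1 and 43.8 on F- arrays and 45.1, 45.1 and 45.1 on Sham arrays. It was the 1 member with a higher value at an unadjusted p under 0.05 in F+ against F- (0.066, SE 0.026, unadjusted p = 0.0374, adjusted p = 0.671). Cdc20, the activator of that complex, had 34.5 to 41.8 on F+ arrays, 34.2 to 42.6 on F- arrays and 32.7 to 40 on Sham arrays.

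Repeated values such as those of Kif20a, Kif2c and Ube2c bear on the precision. Of the 41 members, 7 had 5 or fewer distinct values on the 9 arrays (11.9% of all features had), and 13 lay in the dimmest 33.3% of features. These 13 were Ccne1, Ccnb1, Cdk1, E2f1, Ttk, Bub1b, Melk, Pbk, Cdca8, Kif11, Kif20a, Kif2c and Cdca3. The second features of Rrm1, Rrm2 and Ccnb2 had log2 fold changes of 0.12, 0.14 and 0.085 in F- against Sham, beside 0.092, 0.18 and 0.097 for the features used.

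A further 6 lists of cell cycle genes were counted in the same way, and none of their genes passed an adjusted p of 0.05 in any comparison. Of 38 kinetochore, spindle and condensin genes, 24 had a feature, 10 of which were highest on F- array 1 and 10 lowest on Sham array 1. In F+ against F-, 10 of the 24 were above 0 and 14 below (median -0.023; 48.2% of all features were above 0), and in F+ against Sham 21 were above 0 (median 0.050; 47.4% of all features). Aspm, Nek2 and Spc25, which act at spindle poles, centrosomes and kinetochores, had log2 fold changes of 0.14, 0.11 and 0.14 in PAB against Sham (adjusted p = 0.726 each). Spag5, Cenpa and Tacc3, of the spindle and the centromere, had 0.079, 0.11 and 0.13 in F+ against F- (adjusted p = 0.635, 0.635 and 0.672).

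Of 22 genes of cytokinesis and mitotic entry, 18 had a feature, with 6 highest on F- array 1 and 7 lowest on Sham array 1. Ect2, the exchange factor that directs the cleavage furrow, had 20.7, 20.7 and 24.2 on F+ arrays, 24.7, 20.7 and 20.1 on F- arrays and 13.7, 20.7 and 19 on Sham arrays. Its log2 fold change of 0.31 in PAB against Sham (adjusted p = 0.726) became 0.13 without Sham array 1. Cks2 and Pimreg had -0.049 and 0.071 in that comparison. In F+ against F-, Cks1b, a subunit of cyclin-dependent kinases, Trip13 and the phosphatase Cdc25b had -0.13, 0.11 and 0.089 (adjusted p = 0.651, 0.670 and 0.672).

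Of 24 measured polymerase, fork and nucleotide genes, 6 had a log2 fold change above 0 and 18 below 0 in F+ against F- (median -0.022; 48.2% of all features were above 0). In the same comparison 5 of the 24 had an unadjusted p under 0.05, all 5 lower (20.8%, against 7.41% of all features in either direction). In F+ against Sham the list was split, with 11 above and 13 below 0 (median -0.0039; 47.4% of all features were above 0). Pola2, a subunit of polymerase alpha, had 48.7, 47.7 and 46.7 on F+ arrays, 50.5, 56.9 and 54.4 on F- arrays and 50.5, 50.5 and 52.3 on Sham arrays. All its F+ arrays were below all other arrays, as in Tyms (F+ against F-: -0.18, unadjusted p = 0.00465, adjusted p = 0.573). The highest group mean was that of F- in Pola2 and that of Sham in Tyms. Pold2, of polymerase delta, and Rpa1, which binds single-stranded DNA, had -0.10 and -0.083 (adjusted p = 0.624 and 0.637). In PAB against Sham, Tk1, Rfc4 and Clspn, a salvage kinase, a clamp loader subunit and a checkpoint adaptor of the fork, had 0.12, 0.098 and 0.078.

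The 15 measured genes of origins and the pre-replication complex had medians near 0 (-0.015 in F+ against F- and 0.0029 in PAB against Sham). Orc6, Orc5 and Cdt1 had 0.091, -0.083 and -0.11 in F+ against F-, and Gins1, Orc5 and Gins2 had 0.14, -0.055 and -0.022 in PAB against Sham. The 18 measured other cyclins, kinases and E2F factors had medians of 0.025 and 0.0058 in these comparisons. Tfdp2, Ccnd3 and Ccnh had -0.10, 0.061 and -0.052 in F+ against F-. In PAB against Sham, Ccnd3 and Tfdp2 had 0.060 and -0.055. Ccnd2, cyclin D2, had 129, 125 and 130 on F+ arrays, 135, 117 and 112 on F- arrays and 111, 109 and 117 on Sham arrays (PAB against Sham: 0.15, adjusted p = 0.726). As in Ccnd1, the F+ arrays and F- array 1 were above all Sham arrays. In Ccnd2, F- array 1 was also above all F+ arrays, which was not so in Ccnd1.

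Of the 16 measured inhibitors of the cell cycle, 4 were highest on F- array 1 (13.4% of all features) and 2 lowest on Sham array 1 (11.9%), and for Cdkn3 and Gadd45a both were true. Their median deviation was 0.0037 on F- array 1 and 0.015 on Sham array 1, and their median log2 fold changes were 0.0046 in F+ against F- and 0.0042 in PAB against Sham. Gadd45a, a stress-induced brake on the G2 to M transition, had 60, 60 and 62 on F+ arrays, 71.4, 52.4 and 50.5 on F- arrays and 47.6, 48.7 and 50.1 on Sham arrays. The PAB arrays were above all Sham arrays (PAB against Sham: 0.27, unadjusted p = 0.0278, adjusted p = 0.726). In the same comparison Cdkn2a, which encodes p16 and p19ARF, and Rbl2, a relative of the retinoblastoma protein, had -0.11 and -0.051. Tob1, Gadd45b and Cdkn2a had -0.077, 0.18 and 0.12 in F+ against F- (adjusted p = 0.635, 0.672 and 0.674).

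Fold sizes hold on the scale of the deposited values, which neither the labels nor the methods name. The fold changes that the authors published for Nppa and Hbb match ratios of group means of these values, taken without a transformation. If the values are squares of log2 values, the difference in Ccnd1 between the F+ and Sham groups would be 1.52-fold and not 1.15-fold, that in Top2a between the F- and Sham groups 1.46-fold and not 1.20-fold, and that in Tyms between the F+ and Sham groups 0.689-fold and not 0.866-fold. The order of the arrays is the same on either scale.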

How the data were processed

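Right ventricles were measured on 9 arrays, 3 in each of the F+, F- and Sham groups of the labels. The authors deposited 1 signal value per feature and array, and neither its normalization nor its scale is given in the sources used here. The array medians were 33.4 to 33.9, and arrays correlated at 0.978 to 0.990. The methods name TRIzol and sense-strand cDNA, the sample records Sepasol and biotinylated cRNA. The labels name no batch. Unmapped columns were 0 in number.

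Log2 of the deposited signal went into limma 3.58.1 (lmFit, then eBayes, R version 4.3.3; files read by data.table, version 1.17.8) over all 29215 features and 9 arrays, with 1 mean per group. P-values were two-sided, adjusted by Benjamini-Hochberg over all features, with a threshold of 0.05. PAB stands for the mean of the F+ and F- group means. Of the features, 15310 had 1 symbol, 323 several and 13582 were not listed in the platform annotation held here, and 15279 matched RefSeq GRCr8 by gene ID, which changed 0 symbols. A gene was read from the feature with the highest mean. The exact permutation test used scipy 1.17.1, and plots matplotlib 3.10.9 under Python 3.11.15.

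The members and lists were chosen with earlier results of these data known. Every member was named, the usual markers of cycling cells and the 2 members of each role group with the largest statistic were given on every array, and 3 genes per other list were named in F+ against F- and in PAB against Sham. Postn and the further cell markers lie in lists of cell type markers. Alternatives were the scale (square roots, no transformation), quantile normalization, median centring, dim features left out, features of 1 symbol alone, a block for the replicate number, a fit of just the compared groups, a trend with robust priors, averaging the features of a gene and leaving out arrays. The fit was tested on simulated data. The number of arrays limits the precision.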

Additional observations from a re-analysis of the deposited data

How the results depend on the processing

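The count of cell division genes past the threshold was 0 in every comparison under every alternative. The replicate number as a block gave 0 features in F+ against F-, where 1 passed without it, and changed no other call. Same-numbered arrays of 2 groups correlated between -0.205 and 0.053 in their deviations from group means. These correlations show no pairing by number, but with 3 arrays per group they cannot decide whether same-numbered arrays were processed together. Features passing in F+ against F- were also 0 with only the groups compared, 3 without a transformation, 3 without the dimmest 33.3% of features, 3 with 1 symbol only, 3 with a trend and robust priors, 3 without Sham array 2 and F- array 1, and 0 to 3 with 1 array left out (3 without F- array 1). In F+ against Sham, 1 feature passed with only the groups compared and 1 without Sham array 2 and F- array 1, beside 0 in the main setting.

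Leaving out Sham array 1 and F- array 1 together, a choice made after seeing the data, gave 2 features in F+ against F- and 1 in F+ against Sham, and 27 and 9 on square roots. The median of the 41 genes then became 0.0373 in F+ against F- (0.07313 on square roots), -0.02553 in F- against Sham (-0.05128) and -0.001791 in PAB against Sham (-0.0003553). In F- against Sham the sign turned for Ccna2 (-0.02139, and -0.04084 on square roots), Ccnb1 (-0.03537 and -0.05536), Cdk1 (-0.06771 and -0.111) and Cdca3 (-0.1046 and -0.1564). Gins2 turned in PAB against Sham to 0.007479, also without Sham array 1 alone, and to 0.0147 on square roots, with a lowest value of -0.03639 with 1 array left out. With 1 array left out, the median ranged from -0.0537 to 0.0373 in F+ against F-, 0.0248 to 0.1115 in F- against Sham, 0.0194 to 0.0899 in F+ against Sham and 0.0187 to 0.1015 in PAB against Sham. The cause was not tested. Of the values of single genes, 1185 kept their direction and 11 reversed. Depth could not be assessed from these values, and 7 members with 5 or fewer distinct values have little resolution.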
